A study of Danio rerio with 4 samples.

Results

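The finTRIM genes ftr82 and ftr83 are described here in RNA that was precipitated with FLAG-tagged Ddx3xb, a DEAD-box RNA helicase, from early zebrafish embryos. They were found by matching the Ensembl gene IDs of the deposited tables to gene symbols, and are 2 genes of the 27205 listed in either table and of the 57 listed finTRIM genes. The embryos were of wild-type genotype, carried injected mRNA for FLAG-tagged Ddx3xb in every group, and were collected at 4 or 2 hours post-fertilization (hpf), with 2 biological replicates per age in the labels. RNA held on anti-FLAG beads was sequenced (RIP-seq). The sample descriptions also contain the word control without saying of what, and the labels do not state how many embryos made up a sample.

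Levels are in RPKM, in which reads are divided by gene length and by the read total, and the authors gave 1 mean per gene and age. No value here therefore has an SD or n of its own, no difference could be set against the spread between replicates, and sequencing depth is unknown. Without an input or mock precipitate in the analysis, a value is a level on the beads, not an enrichment over embryo RNA. In bulk RNA of this kind, fewer cells with a transcript and less transcript per cell cannot be told apart.

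The finTRIM genes are a branch of the tripartite motif (TRIM) family that has expanded in fish. TRIM proteins typically carry a RING finger, which in many of them acts as an E3 ubiquitin ligase, followed by B-box and coiled-coil regions, and many finTRIM proteins end in a B30.2 domain. The family was first met as genes induced by virus in fish cells, and in zebrafish ftr83 has been tied to the induction of type I interferon and to resistance to viruses. Members differ widely between fish species, and many are close copies of each other, so that reads may have been divided or dropped among them by the authors' counting.

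Both tables were checked against genes whose time of expression is well known, because every direction below rests on the ages in the labels. Among 18 early zygotic developmental genes at or over 1 RPKM in one table or both, 1 was at least 2-fold higher and 9 were at least 2-fold lower in the 4 hpf table than in the 2 hpf table, with a median log2 difference of -1.04, where 33.0% of all genes compared were higher and 10.9% lower. Embryos switch such genes on with age, so the list went against the order of the labels. Of the lower genes, noto, irx7, tbx16, chrd and sox19a reached 1 RPKM in both tables. The others, mxtx1, mixl1, lft1 and apela, were under 1 RPKM in the 4 hpf table and passed through the 2 hpf table alone. Of all 1785 genes that did so, 54.4% were at least 2-fold lower, so no weight is put on the calls of these others. Of 17 maternal egg genes, 12 were at least 2-fold higher and 0 at least 2-fold lower in the 4 hpf table, with a median of 1.44. The tables were also scaled so that the typical ratio between them, the median over genes with at least 5 RPKM in both, was at parity. Of the zygotic genes 17 were then lower, and of the maternal genes 3 were higher and 1 lower. The maternal median was 0.53 and the zygotic one -1.84. Of all 13341 genes compared, 476 were higher and 2964 lower under that scaling. The names 4 hpf table and 2 hpf table below are therefore labels, and whether the ages were exchanged was not tested.

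Transcripts of both genes were lower in the 4 hpf table and lay close together in each table. ftr82 (ENSDARG00000055647) had 1.53 RPKM in the 4 hpf table and 15.3 RPKM in the 2 hpf table. ftr83 (ENSDARG00000025403) had 1.73 RPKM in the 4 hpf table and 12.5 RPKM in the 2 hpf table. Either gene was thus a moderately abundant RNA of the precipitate at one labelled age. At the other it was not far above 1 RPKM, the level set here for comparing genes. Together they summed to 3.26 RPKM in the 4 hpf table and 27.9 RPKM in the 2 hpf table.

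The rank of a gene within its own table does not depend on how the tables are scaled to each other. ftr82 was the 10245th highest of 24904 listed genes in the 4 hpf table, above 58.9% of them, and the 1587th of 25804 in the 2 hpf table, above 93.8%. ftr83 took place 9879 in the 4 hpf table, above 60.3% of listed genes, and place 1982 in the 2 hpf table, above 92.3%. Among the 13341 genes that reached 1 RPKM in either table, ftr82 was above 23.2% in the 4 hpf table and 88.1% in the 2 hpf table, and ftr83 above 26.0% in the 4 hpf table and 85.1% in the 2 hpf table.

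The difference between the ages was taken on the log2(RPKM + 1) scale, table labelled 4 hpf minus table labelled 2 hpf, over the 13341 genes that reached 1 RPKM in either table. This scale understates the difference of low genes. ftr82 had a difference of -2.69 and ftr83 of -2.31, and both passed the filter in each of the tables. Without a pseudocount, the level labelled 4 hpf was 0.0997 of that labelled 2 hpf for ftr82 and 0.138 of it for ftr83. A gene was called at a difference of at least 2-fold on this scale. Both members were called lower, as were 10.9% of all genes compared, while 33.0% were called higher. Both genes were chosen by these same RPKM values in the 2 tables, so their call is a description and nothing is read from it.

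In RPKM as deposited, the typical gene differed in the other direction. That direction and the balance of higher to lower calls followed the scaling of the tables. The median difference over all 13341 genes was 0.66, or -0.083 with the typical ratio between the tables at parity. Relative to the median of 0.66, ftr82 lay at -3.35 and ftr83 at -2.97, where 21.2% of genes lay 2-fold or more under that median. Of all compared genes, 109 (0.817%) had a lower difference than ftr82 and 211 (1.58%) a lower one than ftr83. These shares were 3.31% for ftr82 and 5.05% for ftr83 with a pseudocount of 0.1, and 0.401% and 0.776% over all listed genes without a filter. Higher genes made up 75.2% of calls on the unscaled values. Equalizing the summed RPKM gave 85.6%, quantile normalization 39.7%, equalizing the sum with the 100 highest genes left out 28.7%, and setting the typical ratio between the tables to parity 13.8%. Both members were called lower under each of these scalings, which is a description only, as both were chosen on these values.

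**Figure D1:**
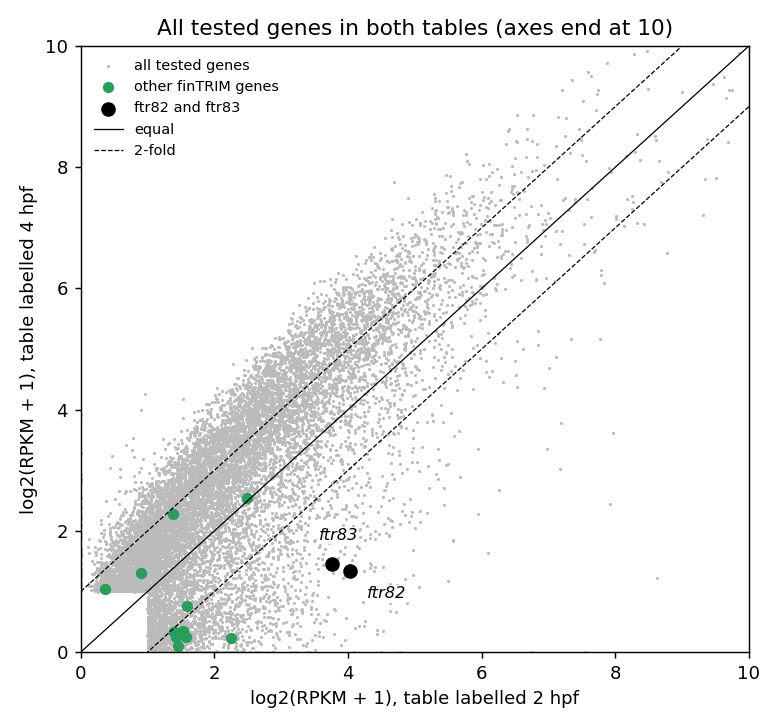
Each grey point is 1 gene that reached 1 RPKM in either table, with its log2(RPKM + 1) in the 4 hpf table on the vertical axis against the 2 hpf table on the horizontal axis. ftr82 and ftr83 (black) sit side by side well under the lower dashed line, which marks 2-fold lower, and the other finTRIM genes (green) sit near the origin. The 14 genes beyond the axis limit of 10 are not drawn.

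The members were also set beside genes of similar level in the 2 hpf table. Among the 1324 genes with 10 to 20 RPKM in the 2 hpf table, a range that holds both members, the median difference was 0.89 and 147 genes (11.1%) were at least 2-fold lower in the 4 hpf table. Of these 1324, 35 had a lower difference than ftr82 and 52 a lower one than ftr83. The range was taken in the table where both members are high, and they were chosen on these same values. A low place among these genes was thus favoured in advance, and nothing is read from it. In that same range 53 genes, both members included, were under 2 RPKM in the 4 hpf table.

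The levels of the pair lay close to each other in both tables. RPKM is a value per length, so their levels can be set side by side. ftr82 was at 0.883 times the level of ftr83 in the 4 hpf table and at 1.22 times its level in the 2 hpf table. The order of the pair was therefore reversed between the labels, and without replicate values neither order can be called a difference. Their log2 differences lay 0.38 apart.

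The rest of the family was low in both tables. The name table holds 74 symbols of finTRIM form, and 57 of these genes were listed in the data, 42 of them in both tables, 3 only in the 4 hpf table and 12 only in the 2 hpf table. Among the 55 finTRIM genes other than the members, the median RPKM was 0.0795 in the 4 hpf table and 0.210 in the 2 hpf table, with an unlisted gene taken as 0. No other finTRIM gene exceeded 4.80 RPKM in the 4 hpf table or 4.59 RPKM in the 2 hpf table. ftr82 and ftr83 were the only ones of the 57 that reached 5 RPKM in either table. They held 15.9% of the family's summed RPKM in the 4 hpf table and 47.0% in the 2 hpf table.

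The order within the family differed between the tables. In the 4 hpf table, ftr24 led with 4.80 RPKM and ftr86 followed with 3.86 RPKM, ahead of ftr83 and ftr82 in places 3 and 4. In the 2 hpf table, ftr82 and ftr83 took the first places, and ftr24 came next with 4.59 RPKM. ftr24 was thus nearly level between the tables (a log2 difference of 0.05, or -0.80 with the typical ratio between the tables at parity), and ftr86, at 1.61 RPKM in the 2 hpf table, had a difference of 0.90, or 0.16 at parity and 1.19, a higher call, with equal sums. Which of these neighbours in rank differ beyond replicate spread cannot be said from means alone.

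**Figure D2:**
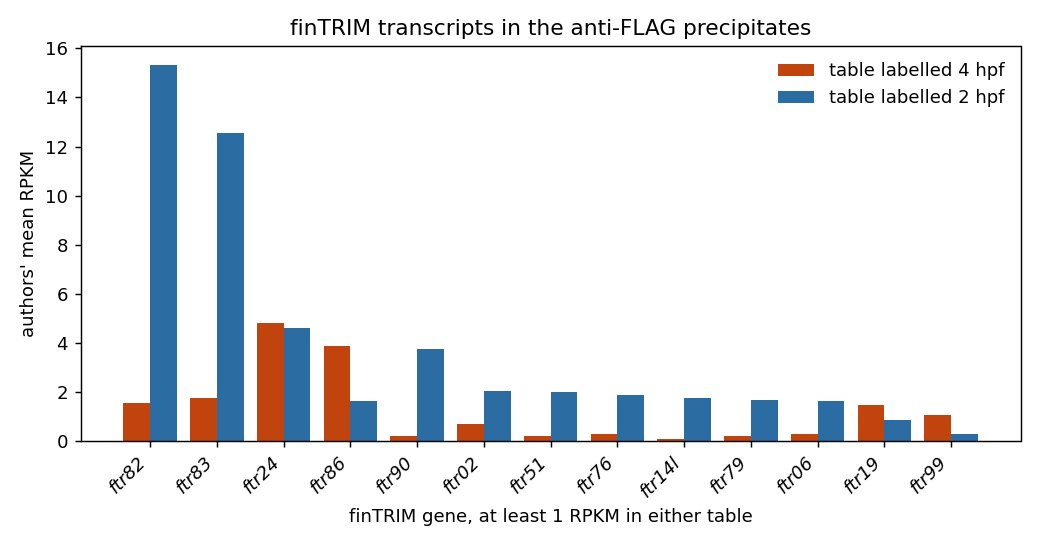
Bars give the authors' mean RPKM of the 13 finTRIM genes that reached 1 RPKM in either table, labelled 4 hpf on the left of each pair and labelled 2 hpf on the right, in order of their higher value. ftr82 and ftr83 have the tallest bars, at 15.3 and 12.5 RPKM in the 2 hpf table, and ftr24 and ftr86 are higher than both in the 4 hpf table.

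Of the 11 other finTRIM genes that passed the filter, 6 were at least 2-fold lower in the 4 hpf table and 0 at least 2-fold higher (1, ftr86, with equal sums), beside 10.9% and 33.0% of all genes compared. With equal sums, 6422 of all 13341 genes compared were higher. All 6 were under 1 RPKM in the 4 hpf table and between 1.63 and 3.74 RPKM in the 2 hpf table, so they passed the filter through the one table alone, and the count is not support for a shared direction. Of all 1785 genes that passed the filter in that way, 54.4% were at least 2-fold lower. The widest of the 6 on the log2(RPKM + 1) scale was ftr90, at 0.181 RPKM in the 4 hpf table and 3.74 RPKM in the 2 hpf table.

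Others of the 6 were lower in level. ftr51 had 0.196 RPKM in the 4 hpf table and 1.99 RPKM in the 2 hpf table. ftr76 had 0.276 RPKM in the 4 hpf table and 1.88 RPKM in the 2 hpf table. In both genes, as in the next pair, the higher 2 hpf value was fixed by their being picked as lower calls. ftr14l had 0.0795 RPKM in the 4 hpf table and 1.76 RPKM in the 2 hpf table. ftr79 had 0.184 RPKM in the 4 hpf table and 1.68 RPKM in the 2 hpf table. Levels this low may rest on few reads, and how many is unknown. ftr02 was below the threshold for a call, with 0.701 RPKM in the 4 hpf table and 2.02 RPKM in the 2 hpf table. Without any filter, 41 of the 55 other finTRIM genes (74.5%) had a lower value in the 4 hpf table, beside 45.6% of all 27205 genes. Of these 55, 44 were under 1 RPKM in both tables, whereas the 45.6% covers genes of every level. Neither share was matched for level or rescaled, so no shared direction is read from them.

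Other TRIM genes, most of which carry the same RING, B-box and coiled-coil layout, had a higher median in the 4 hpf table under the 5 scalings tried. Of 27 compared genes with a trim symbol, 14 were at least 2-fold higher and 1 at least 2-fold lower. Over all genes compared, these shares were 33.0% and 10.9%. The median of the 27 was 1.08, beside 0.66 for all genes. With the typical ratio between the tables at parity, 476 of all 13341 genes compared were higher and 2964 lower. Of the 27, 1 was then higher and 5 were lower, and their median was 0.28. The 1 lower gene in RPKM as deposited was trim25l, named for its likeness to the RIG-I regulator TRIM25, at 3.17 RPKM in the 4 hpf table and 24.2 RPKM in the 2 hpf table. Its difference of -2.60 lay between those of ftr82 and ftr83. The highest of the list in the 4 hpf table were trim35-29, at 77.2 RPKM in the 4 hpf table and 17.3 RPKM in the 2 hpf table, and TRIM71, a regulator of early development also known as LIN41, at 62.5 RPKM in the 4 hpf table and 15.7 RPKM in the 2 hpf table. In the 2 hpf table, TRIM71 was thus at nearly the level of ftr82.

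The bloodthirsty-related genes are another TRIM branch that has expanded in fish. Of 6 compared, 1 was at least 2-fold higher in the 4 hpf table and 0 at least 2-fold lower. Over all genes compared, these shares were 33.0% and 10.9%. The median of the 6 was 0.88, or 0.16 with the typical ratio at parity (0 higher, 1 lower). With equal sums, 3 were higher and 0 lower. Of all 13341 genes compared, 476 were higher and 2964 lower at parity, and 6422 higher and 1080 lower with equal sums. btr04 had 21.2 RPKM in the 4 hpf table and 13.8 RPKM in the 2 hpf table. btr12 had 11.4 RPKM in the 4 hpf table and 5.31 RPKM in the 2 hpf table. In the 2 hpf table btr04 stood between ftr82 and ftr83, and in the 4 hpf table it was far above them.

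Genes of the interferon pathway, to which ftr83 has been tied, had medians on either side of 0. Among 13 compared genes of interferon induction, 5 were at least 2-fold higher in the 4 hpf table and 0 at least 2-fold lower. The 5 made up 38.5% of those compared, near the 33.0% of all genes that were higher, and 10.9% of all genes were lower. The median of the list was 0.90, which became 0.21 (0 higher, 0 lower) with the typical ratio at parity. Under that scaling, 476 of all 13341 genes compared were higher and 2964 lower. The most abundant in the 4 hpf table was ikbkg, a scaffold of the IkB kinase, at 55.2 RPKM in the 4 hpf table and 18.9 RPKM in the 2 hpf table, followed by the NF-kB subunit gene nfkb2 at 19.8 RPKM in the 4 hpf table and 6.43 RPKM in the 2 hpf table. Ligands, receptors and JAK-STAT genes numbered 6, of which 1 was at least 2-fold higher and 0 at least 2-fold lower, with a median of -0.17, which turned to 0.051 with equal sums and was -0.74 with the typical ratio at parity (0 higher, 1 lower). The kinase gene JAK1 had 8.58 RPKM in the 4 hpf table and 3.77 RPKM in the 2 hpf table.

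Interferon-stimulated effectors had a median whose sign depended on the scaling. Of 9 compared, 1 was at least 2-fold higher in the 4 hpf table and 1 at least 2-fold lower. Over all genes compared, these shares were 33.0% and 10.9%. The median of the 9 was 0.19, or -0.63 with the typical ratio at parity (0 higher, 4 lower). With the 100 highest genes left out of the sum, 0 were higher and 3 lower, and with equal sums 1 was higher and 0 lower. Of all 13341 genes compared, 476 were higher and 2964 lower at parity. The counts were 1030 and 2560 without the 100 highest genes, and 6422 and 1080 with equal sums. In RPKM as deposited, the lower one was the ubiquitin-like modifier gene isg15. It had 3.08 RPKM in the 4 hpf table and 7.63 RPKM in the 2 hpf table. The exonuclease gene isg20 had 7.24 RPKM in the 4 hpf table and 8.58 RPKM in the 2 hpf table. The list held gbp1 and gbp2 but not gbp3, so these counts leave gbp3 out. gbp3 had 29.4 RPKM in the 4 hpf table and 5.77 RPKM in the 2 hpf table, a log2 difference of 2.17.

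**Figure D3:**
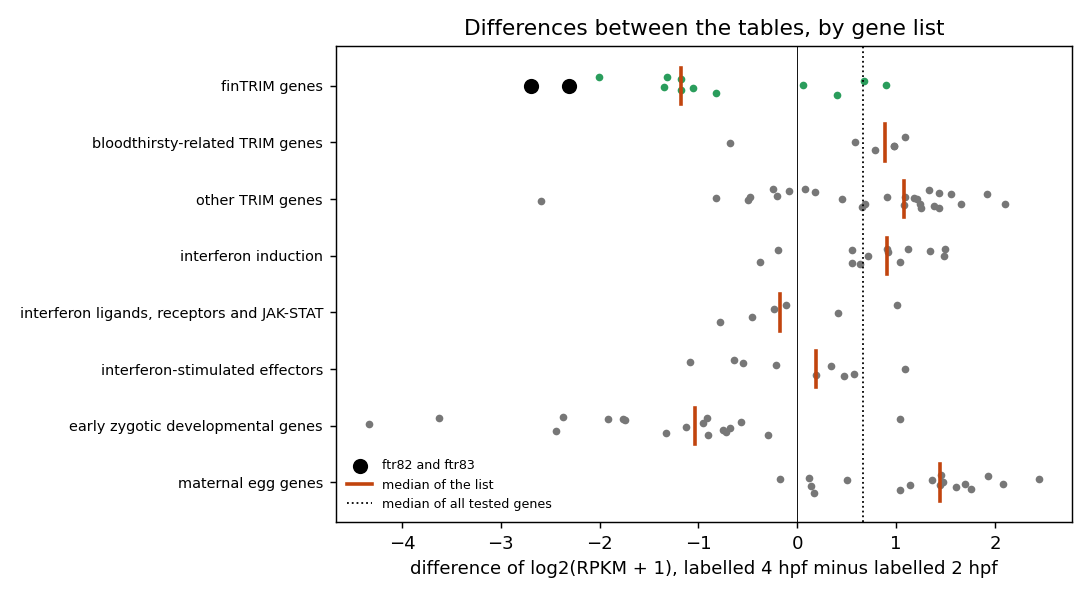
Each point is 1 gene of a list that reached 1 RPKM in either table, placed by its difference of log2(RPKM + 1), labelled 4 hpf minus labelled 2 hpf, and orange bars are list medians. ftr82 (-2.69) and ftr83 (-2.31) lie at the left end of the finTRIM row, in the range covered by the early zygotic genes and left of every maternal egg gene drawn.

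The differences of both members lay within the range of the early zygotic developmental genes. These ran from -4.33 to 1.03, and 2 of the 18 were lower than ftr82 and 4 lower than ftr83. The genes beyond ftr82 were the mesodermal T-box gene tbx16 and the notochord gene noto. Of these, noto was at 9.21 RPKM in the 4 hpf table and 125 RPKM in the 2 hpf table. None of the 17 maternal egg genes, which ran from -0.18 to 2.45, reached either member. Markers of leukocytes, which arise at later stages, were low. Their summed level over 16 listed genes was 2.63 RPKM in the 4 hpf table and 6.87 RPKM in the 2 hpf table, and the defining markers with a matched ID, lyz, coro1a, ptprc and rag1, were all under 0.5 RPKM in both tables. The actin-bundling gene LCP1, the highest of the list in the 2 hpf table, had 0.0124 RPKM in the 4 hpf table and 3.13 RPKM in the 2 hpf table. The part of such cells in the members' values was not tested.

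The genes most like each member were sought by distance of log2(RPKM + 1) over the 2 tables, among 16386 other genes, leaving out unnamed IDs and clone names. Nearest to ftr82 was the amino acid transporter subunit gene SLC3A2, at 1.54 RPKM in the 4 hpf table and 15.9 RPKM in the 2 hpf table, a distance of 0.048. PRICKLE1, a gene of planar cell polarity, came next at 0.070, followed by the complement gene c3a.3 (0.11) and the hyaluronan synthase gene HAS2 (0.12). Nearest to ftr83 was chrd, which encodes the BMP antagonist Chordin, at 1.80 RPKM in the 4 hpf table and 13.5 RPKM in the 2 hpf table, a distance of 0.10. After chrd came the splicing regulator gene TRA2B (0.18), the cystatin gene cst3 (0.25), c3a.3 (0.25) and rab44 (0.27). ftr83 was in place 9 on the list of ftr82, and ftr82 in place 8 on that of ftr83, at a distance of 0.29. With 2 tables, likeness means only that both levels are alike.

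ftr82 and ftr83 are neighbours on chromosome 5 in a RefSeq annotation of a later assembly (GRCz12tu), which was used for gene order alone. That annotation puts 1 gene, a long noncoding RNA, between them. Of the 6 nearest genes matched to a listed ID, 3 on each side, 3 reached 1 RPKM in either table. Of these 3, 1 was at least 2-fold higher and 0 at least 2-fold lower in the 4 hpf table. Over all genes compared, these shares were 33.0% and 10.9%. The one called higher was RUVBL2, which encodes the ATPase Reptin and is the nearest matched gene on the side of ftr83. It had 21.2 RPKM in the 4 hpf table and 8.94 RPKM in the 2 hpf table. Its log2 difference of 1.16 was 0.20 with the typical ratio at parity, 0.27 under quantile normalization and 0.42 with the 100 highest genes left out of the sum, so that the call was lost. With equal sums it was 1.54 and the call was kept. UBE2G1, a ubiquitin-conjugating enzyme gene, had 36.6 RPKM in the 4 hpf table and 34.9 RPKM in the 2 hpf table. Its log2 difference of 0.07 came to -0.93 with the typical ratio at parity and to 0.46 with equal sums. spns2, a sphingosine-1-phosphate transporter gene, had 0.243 RPKM in the 4 hpf table and 1.15 RPKM in the 2 hpf table. On the side of ftr82, the intraflagellar transport gene IFT22 had 0.243 RPKM in the 4 hpf table and 0.262 RPKM in the 2 hpf table, and tcnba and tcnbb were listed only in the 2 hpf table, at 0.157 and 0.314 RPKM. Apart from RUVBL2 and UBE2G1, these neighbours were too low in the 2 hpf table to have shown a difference of the size of either member.

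**Figure D4:**
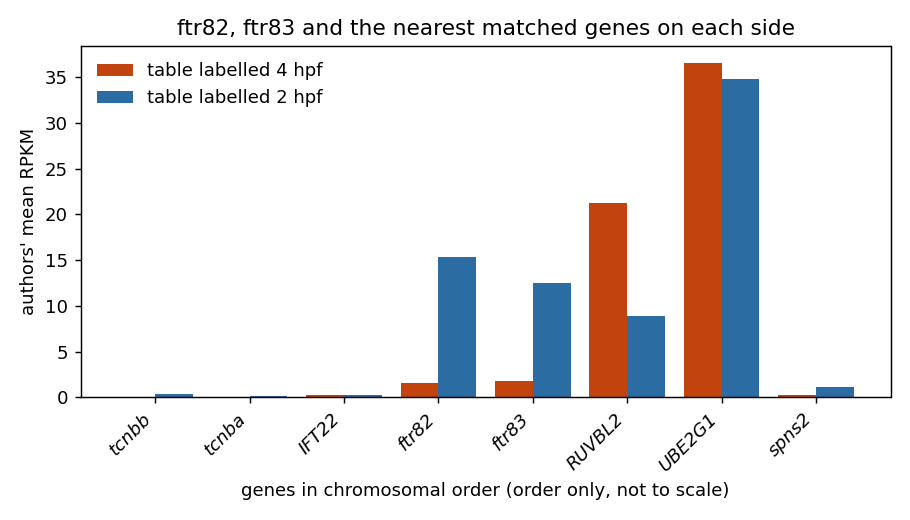
Bars give the authors' mean RPKM of ftr82, ftr83 and the 3 nearest matched genes on each side in chromosomal order, labelled 4 hpf on the left of each pair and labelled 2 hpf on the right. ftr82 and ftr83 are tall only in the 2 hpf table. In RPKM as deposited, RUVBL2 is taller in the 4 hpf table and UBE2G1 is nearly level. RUVBL2 and UBE2G1 had log2 differences of 0.20 and -0.93 with the typical ratio at parity, and 1.54 and 0.46 with equal sums.

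The members' differences kept their sign and stayed past 2-fold under the alternative pseudocounts and scalings tried. The filters and the 4-fold limit cannot change a gene's own difference, only what it is set against. Both genes were chosen on these values and lay far past 2-fold, so the ranges below give no support to the calls. ftr82 ranged from -3.47 to -1.64 and ftr83 from -3.10 to -1.38, with the smallest sizes at a pseudocount of 5 and the largest when the typical ratio between the tables was set to parity. With 4-fold as the limit both were still called. Relative to the median of all genes under the same setting, ftr82 ranged from -4.13 to -1.96 and ftr83 from -3.67 to -1.70.

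**Figure D5:**
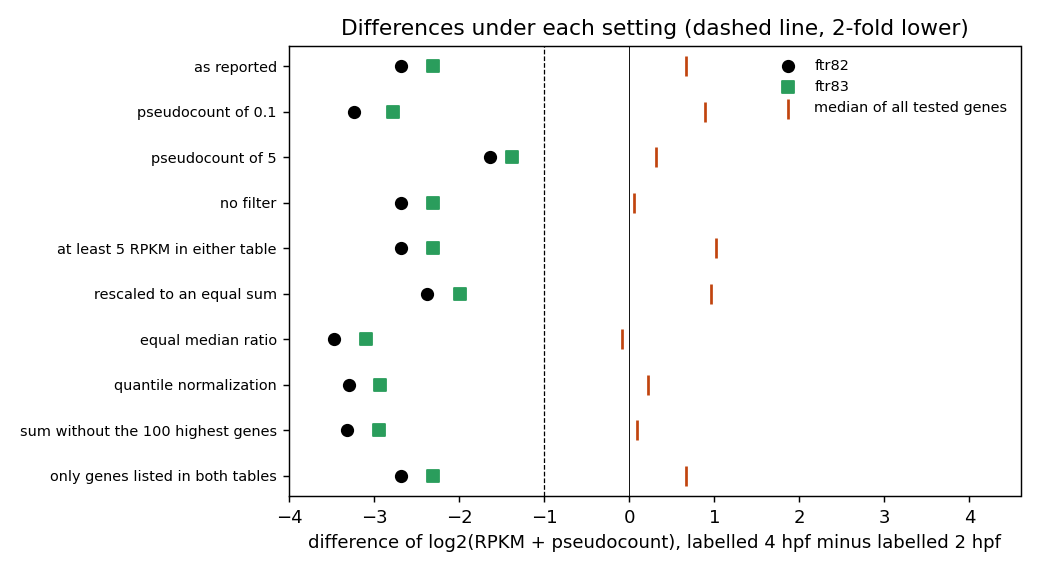
Points give the difference of log2(RPKM + pseudocount), labelled 4 hpf minus labelled 2 hpf, of ftr82 (circles) and ftr83 (squares), and orange ticks the median of all genes compared, as reported and under 9 alternatives. Both members lie left of the dashed line, 2-fold lower, in every row, while the median shifts with the scaling.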

How the data were processed

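The members and gene lists were chosen with earlier results of these data known. The authors deposited RPKM in 1 headerless table per age. That each value is a mean is taken from the tables' names. Of the values written with over 6 significant digits, 93.5% and 93.3% in the 4 and 2 hpf tables ended in 5, as halved sums do. The submitters' processing notes name build Zv9, bedtools 2.16.2, MACS2 2.0.10, TopHat2 2.1.1, Bowtie, Trimmomatic 0.36 and cutadapt 1.13. What each did, the annotation and the counting are not given in the sources used. A symbol was found for 20039 of 27205 IDs (73.7%), some of them human in style.

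Genes missing from 1 table were set to 0 there. Differences of log2(RPKM + 1) were computed in Python 3.11.15 with pandas 2.3.3 for genes that reached 1 RPKM in 1 or both tables, and called at 2-fold. With 1 mean per age no test was run and no p-value is given. The calculation was tested on simulated data in which every planted change was past the 2-fold limit. The outcome for those genes was thus fixed in advance, so the test checks the arithmetic and gives no weight to the calls. Named genes are both members, the 8 highest other finTRIM genes, the highest and most different genes of each of 8 other lists, the 5 genes nearest to each member, and 3 listed neighbours on each side. Of these, a part is printed, and 1 of the nearest genes is not reported here. Exceptions, such as the leukocyte markers lyz, coro1a, ptprc and rag1, are named as defining markers. Alternatives covered pseudocounts, filters, scalings, a 4-fold threshold and genes listed in both tables. No sequences were used here.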

Additional observations from a re-analysis of the deposited data

How the results depend on the processing

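No paired analysis was possible because only a mean per gene stands for each age, which also kept replicates from being left out in turn. Depth and replicate spread are unknown, and no input or mock was at hand. The calls of ftr82 and ftr83 stood under all alternative pseudocounts and scalings and at 4-fold, and the filters cannot change them. As both genes were chosen on these values, no support is drawn from this. Scalings kept the same 13341 genes. The count of higher genes, 4409, was 6422 with equal sums, 6088 with a pseudocount of 0.1 and 3593 with a filter of 5 RPKM. It was 1907 with a pseudocount of 5, 1369 under quantile normalization and 1030 when the sum without the 100 highest genes was made equal. With an equal median ratio it was 476, and at 4-fold 291. The count of lower genes, 1452, was 2152 and 371 with pseudocounts of 0.1 and 5, and 607 with a filter of 5 RPKM. It was 1080 with equal sums, 2082 under quantile normalization, 2560 without the 100 highest, 2964 with an equal median ratio, and 342 at 4-fold. The 8 finTRIM genes lower by 2-fold, members included, became 2 with a pseudocount of 5 and 2 with a filter of 5 RPKM, in both cases ftr82 and ftr83, and 3 at 4-fold. No other finTRIM gene reached 5 RPKM in either table, so neither of the first 2 settings could have called another one lower. The median difference of all genes, 0.66, was 0.89 and 0.32 with pseudocounts of 0.1 and 5, 0.049 unfiltered, 1.02 with the 5 RPKM filter, 0.96 with equal sums, -0.083 with an equal median ratio, 0.22 under quantile normalization and 0.092 without the 100 highest genes. Among the 13341 genes alone, ftr82 was above 23.2% in the 4 hpf table and 88.1% in the 2 hpf table, and ftr83 above 26.0% in the 4 hpf table and 85.1% in the 2 hpf table.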
